A study of Homo sapiens with 4 samples.

Results

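The synthesis of pyrimidine nucleotides and of the building blocks of DNA was examined at 9 genes in wild-type HAP1 cells, namely CAD, DHODH, UMPS, CTPS1, TYMS, DTYMK, RRM1, RRM2 and TK1. The genes were taken by name from the pathway and are 9 of the 20162 protein-coding genes annotated on chromosomes 1 to 22, X and Y of hg19. A peak was assigned to a gene when at least 1 bp overlapped the gene body or 5 kb on either side. This gave 5 of the 1723 MYC peaks and 38 of the 87087 H3K27ac peaks.

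HAP1 is a near-haploid line that was established from KBM-7 chronic myelogenous leukemia cells. Chromatin of unedited cells was immunoprecipitated with antibodies against MYC and against H3K27ac, an acetylation of histone H3 found at active regulatory DNA. Normal rabbit IgG and input chromatin, which was not immunoprecipitated, served as controls. MYC peaks were called over input and H3K27ac peaks over IgG, and the fold enrichment given for each peak is the ratio to that control at its summit. Each of the 4 samples is 1 library without a replicate, and therefore no test of a difference was made. Of 4 housekeeping genes (ACTB, GAPDH, RPLP0 and EEF1A1), 4 had an H3K27ac peak within 1 kb of the transcription start site (TSS). Of 8 blood lineage genes (PTPRC, SPI1, GATA1, CD33, CD34, MPO, ITGAM and CD53), 1 had such a peak, SPI1 with a fold enrichment of 5.00. Among all protein-coding genes the share was 65.4%. These blood lineage genes were thus largely without a called peak, and the parent KBM-7 cells were not among the samples.

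Cells build UMP from simple precursors through a multifunctional enzyme encoded by CAD, the mitochondrial enzyme DHODH and UMPS, and CTP synthase turns the uridine nucleotide into its cytidine counterpart. Ribonucleotide reductase, with subunits encoded by RRM1 and RRM2, makes deoxynucleotides, while TYMS, DTYMK and the salvage enzyme TK1 supply thymidine nucleotides. Proliferating cells need these products for RNA and DNA synthesis, and CAD is a classical target gene of MYC, a transcription factor that binds DNA with its partner MAX at the E-box CACGTG.

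The E-box was searched within 2 kb of the TSS of the canonical transcript of each gene, since this is the sequence to which MYC peaks are usually referred. It occurred 8 times at 5 of the 9 genes, beside 43.5% of all protein-coding genes with at least 1 such match. These sites are printed below 5′ to 3′ on the strand of the gene with 10 reference bases on each side and the E-box in capitals. CTPS1, TYMS, RRM1 and TK1 had none.

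CAD upstream: ttatttgtctCACGTGtgtccgtgta
CAD first site in exon 1: cgccgttagcCACGTGgaccgactcc
CAD second site in exon 1: gcgccgtcctCACGTGgttccagtgg
DHODH upstream: cgctactgcgCACGTGcacccaacca
DHODH intron 1: tgtgcatttgCACGTGgactcggtca
UMPS intron 1: cacgcttagaCACGTGttttgcaaaa
DTYMK upstream: ctacaattgcCACGTGgccagcgtct
RRM2 upstream: agcaaaaaagCACGTGgcgccctagg

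Their windows on hg19 are chr2:27438774-27438799, chr2:27440309-27440334 and chr2:27440338-27440363 for CAD, and chr16:72042474-72042499 and chr16:72042846-72042871 for DHODH. The UMPS window is chr3:124449678-124449703, that of DTYMK chr2:242626834-242626859 on the minus strand and that of RRM2 chr2:10261024-10261049. Of the 8 E-boxes, 6 lay in an H3K27ac peak and 3 in a MYC peak, the latter being the sites in exon 1 of CAD and the site upstream of DTYMK. Of the 11391 E-boxes within 2 kb of the TSS of any protein-coding gene, 36.1% lay in an H3K27ac peak and 3.51% in a MYC peak. Within 500 bp of the TSS, 3 of 9 genes (CAD, DHODH and UMPS) had an E-box, against 18.3% of all protein-coding genes. When every annotated TSS of a gene was counted, the number was 6 of 9, against 38.1% of all.

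**Figure D1:**
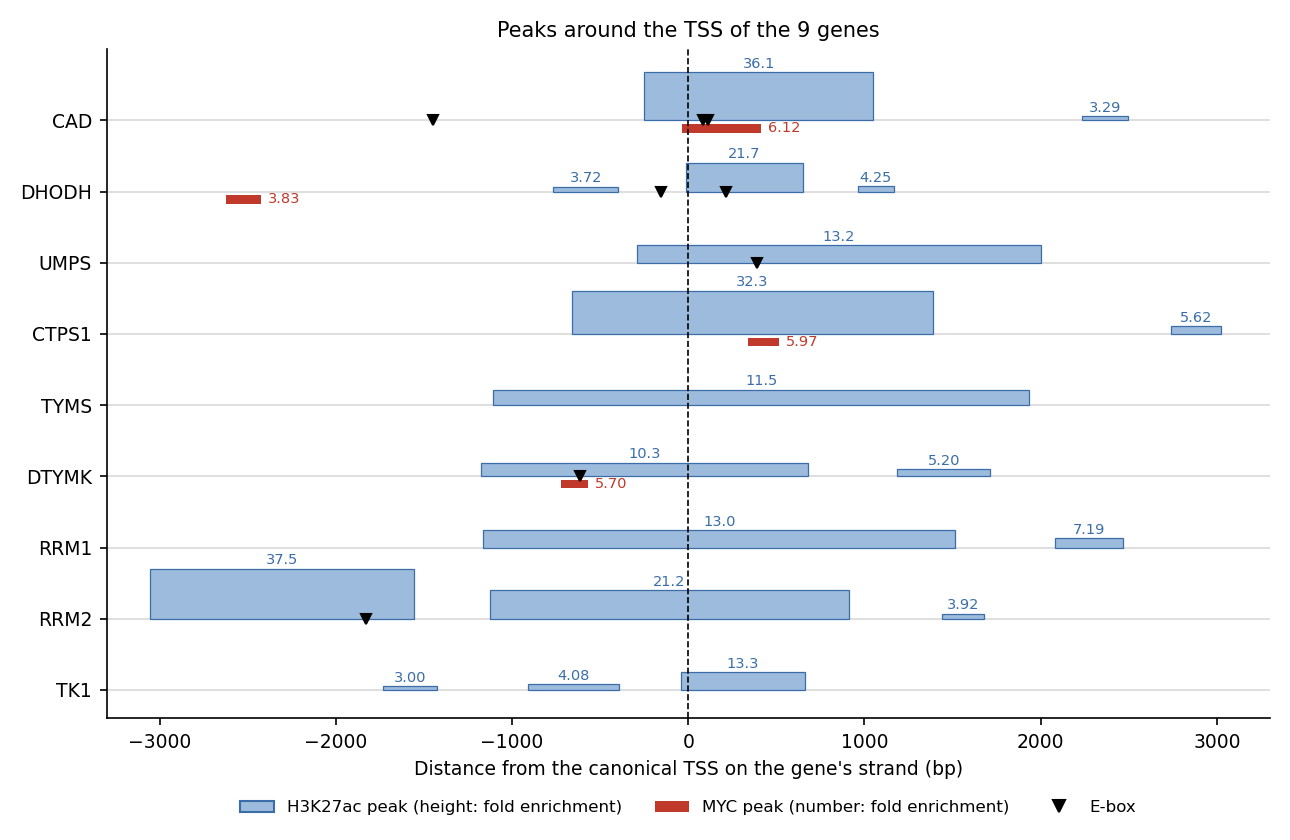
H3K27ac peaks (blue boxes, height and number giving the fold enrichment over IgG), MYC peaks (red bars, number giving the fold enrichment over input) and E-boxes within 2 kb (triangles) by distance in bp from the canonical TSS on the strand of each gene. An H3K27ac peak covers the TSS of all 9 genes, and MYC peaks overlap it at CAD, CTPS1 and DTYMK.

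A MYC peak was found in the window of 5 of 9 genes (CAD, DHODH, CTPS1, TYMS and DTYMK), compared to 7.61% of all protein-coding genes, whose windows differ in length. In 3 of 9 genes (CAD, CTPS1 and DTYMK) the summit lay within 1 kb of the TSS, a count that does not depend on gene length, compared to 3.59% of all protein-coding genes. All 9 genes had an H3K27ac peak within 1 kb of the TSS, where the share of all protein-coding genes was 65.4%, and in all 9 a peak covered the TSS itself, where it was 57%. An H3K27ac peak was thus called at every promoter of the list, whereas a MYC peak was called at only some of them. The MYC counts depend on the calling limit, as given below, and a gene without a called peak cannot be called unbound.

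CAD encodes the enzyme that carries out the opening steps of pyrimidine synthesis and lies at chr2:27440237-27466811 on the plus strand. Its MYC peak, chr2:27440200-27440649, spans the TSS, and the summit falls 153 bp downstream in the untranslated part of exon 1. The fold enrichment was 6.12 with a −log10 q of 11.2, so that 38.3% of all MYC peaks were higher by fold enrichment. CAD was the 1 gene of the 9 with a MYC peak at a −log10 q of at least 10, compared to 2.57% of all protein-coding genes. Its summit lay within 1 kb of the TSS, as did such a summit in 1.24% of all. Both E-boxes of exon 1 lie within this peak, 82 to 87 bp and 111 to 116 bp downstream of the TSS, and they are 66 bp and 37 bp from the summit. The E-box upstream of CAD, 1448 to 1453 bp before the TSS, was covered by neither a MYC nor an H3K27ac peak. The promoter H3K27ac peak, chr2:27439989-27441287, covers the MYC peak entirely and had a fold enrichment of 36.1, the highest among the promoter peaks of the 9 genes. Among all 13185 protein-coding genes with H3K27ac at the TSS, 4.73% had a stronger peak there. A further H3K27ac peak with a fold enrichment of 18.6 had its summit 5251 bp upstream, where ATRAID and SLC5A6 start, and the remaining 2 peaks, in introns 2 and 15, reached 3.29 and 2.85.

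DHODH, which encodes the mitochondrial enzyme that oxidizes dihydroorotate, lies at chr16:72042487-72061563 on the plus strand with its canonical TSS at 72042643. The MYC peak assigned to it, chr16:72040018-72040220, had its summit 2555 bp upstream of the TSS, a fold enrichment of 3.83 and a −log10 q of 1.88. This was the weakest MYC peak of the 9 genes, with 83.7% of all MYC peaks higher. The summit lies in the exon of ATP5F1AP3, a processed pseudogene on the minus strand, 354 bp from its annotated start. From edge to edge, the MYC peak is 1657 bp from the nearest H3K27ac peak. The 100 bp on either side of this summit matched 7 other places of the genome with 90.05% identity, of which 6 were annotated pseudogene loci on chromosome 9, and no MYC peak was called at any of these 7 matches. The part of reads from such copies in the peak was not tested. No E-box lay within 1 kb of the summit, and the 30 reference bases around it, chr16:72040073-72040102 on the plus strand, are shown for comparison with the sites above.

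DHODH summit: tcagaccgactcacttatgggtcttggaac

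At the DHODH promoter itself no MYC peak was called. E-boxes are nevertheless present 154 to 159 bp upstream and 213 to 218 bp downstream of the canonical TSS. The upstream site spans another annotated TSS of DHODH, 156 bp upstream of the canonical one. The downstream site lies within the promoter H3K27ac peak, chr16:72042629-72043293, which had a fold enrichment of 21.7 with the summit 174 bp downstream. The upstream site falls in a gap between this peak and a weaker one with a fold enrichment of 3.72 whose summit is 587 bp upstream, and another peak of 4.25 followed at 1055 bp downstream.

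UMPS completes the synthesis of UMP and lies at chr3:124449280-124468120 on the plus strand. No MYC peak was called in its window, and the nearest MYC summit on the chromosome was 1663323 bp upstream of the TSS, in PDIA5. The E-box of its intron 1, which starts 389 bp downstream of the TSS, lies within the promoter H3K27ac peak chr3:124449008-124451301. This peak had a fold enrichment of 13.2, with the summit 190 bp downstream and a width of 2294 bp. UMPS carried 5 more H3K27ac peaks, all over 10 kb downstream of the TSS and without an annotated TSS within 1 kb. The strongest of them, chr3:124468692-124470365, lies just past the end of the gene and reached 15.8, above the promoter peak. The genes of UMP synthesis thus comprised 1 with a MYC peak over its promoter E-boxes, CAD, and 2 with promoter E-boxes in the reference that no MYC peak covered, DHODH and UMPS.

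CTPS1 encodes CTP synthase and lies at chr1:41444972-41478237 on the plus strand, with the canonical TSS at 41445368. The MYC peak chr1:41445708-41445885 had a fold enrichment of 5.97 and a −log10 q of 9.37, just under the stricter limit of 10. Its summit lies in intron 1 of the canonical transcript, 409 bp downstream of the TSS and 50 bp from another annotated TSS of CTPS1. No E-box was found within 1 kb of this summit. Within 50 bp on either strand the variant CACGCG was also absent, as was the variant spelled CATGTG. The same held for the variant CATGCG, and likewise for the variant spelled CACGAG. The 30 bases around the summit, chr1:41445762-41445791 on the plus strand, are rich in G and C.

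CTPS1 summit: cgcggggcggcttcagaggctgcggggcct

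The promoter H3K27ac peak of CTPS1, chr1:41444706-41446759, was 2054 bp wide with a fold enrichment of 32.3, exceeded at 7.98% of all promoters with the mark. The gene had the most H3K27ac peaks of the list, 7 in all, and the other 6 lay in introns with fold enrichments from 3.38 to 9.62. The highest of these was in intron 14, 27908 bp downstream of the TSS.

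TYMS encodes thymidylate synthase, which methylates dUMP to dTMP, and lies at chr18:657653-673578 on the plus strand. Its MYC peak lay at the other end of the gene than those of CAD and CTPS1. The peak, chr18:672883-673317, had the highest fold enrichment of the 5 MYC peaks, 7.12, with a −log10 q of 7.85, and 24.5% of all MYC peaks were higher. The summit was 15331 bp downstream of the TSS, in the coding part of exon 7, and the same position belongs to the untranslated part of exon 16 of ENOSF1 on the minus strand. The nearest H3K27ac peak was 13294 bp from the edge of this MYC peak, the summit window had no near-identical copy, and neither the E-box nor any of these variants occurred within 50 bp of the summit. Its 30 bases, chr18:672969-672998 on the plus strand, contain a run of A.

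TYMS summit: caactattaaaatggaaatggctgtttagg

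The TYMS window held 1 H3K27ac peak, chr18:656548-659589, which covers the TSS. Its width of 3042 bp was the largest among the promoter peaks of the 9 genes, with a fold enrichment of 11.5 and the summit 159 bp downstream. No MYC peak was called there. The promoter was the 1 of 9 with an E2F-type site (GCGGGAAA, GCGCGAAA or GCGCCAAA, either strand, from 250 bp before to 50 bp after the TSS), which starts 39 bp before the TSS. Such a site occurred in 3.69% of all promoters. It is shown in capitals from chr18:657606-657630 on the plus strand.

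TYMS promoter: ggacggccGCGGGAAAaggcgcgcg

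DTYMK phosphorylates dTMP to dTDP and lies at chr2:242615162-242626359 on the minus strand, with the canonical TSS at 242626230. The MYC peak chr2:242626800-242626954 had its summit 625 bp upstream of the TSS, with a fold enrichment of 5.70 and a −log10 q of 7.04. The E-box is 6 bp from this summit, the closest match among the 5 MYC peaks. An annotated TSS of ING5, transcribed on the opposite strand, lies 355 bp from the same summit, nearer than any annotated TSS of DTYMK, of which the closest is at 496 bp. The canonical TSS of ING5, in contrast, is 14599 bp from the summit, so the nearer gene depends on which starts are counted. The promoter H3K27ac peak chr2:242625549-242627408 covers the MYC peak and both starts. Its fold enrichment of 10.3 was the lowest among the promoter peaks of the 9 genes, with 80% of all promoters with the mark higher, and its summit was 353 bp upstream of the TSS.

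TK1, the cytosolic thymidine kinase of the salvage route, lies at chr17:76170172-76183314 on the minus strand with the canonical TSS at 76183133. No MYC peak was called in its window, and the nearest MYC summit was 653724 bp upstream, in USP36. The promoter H3K27ac peak chr17:76182472-76183175 was 704 bp wide with a fold enrichment of 13.3 and the summit 147 bp downstream of the TSS. AFMID starts 310 bp away on the opposite strand, and weaker H3K27ac peaks of 4.08 and 3.0 had their summits 732 bp and 1499 bp upstream of TK1. The strongest peak of the window, 30.5, was 18256 bp downstream of the TSS, where SYNGR2 starts. The thymidine genes therefore had promoter H3K27ac peaks of fold enrichment 10.3 to 13.3, and DTYMK was the 1 of these 3 with a MYC summit within 1 kb.

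RRM1 encodes the large subunit of ribonucleotide reductase and lies at chr11:4115937-4160162 on the plus strand. No MYC peak was called in its window, and the nearest MYC summit was 3150908 bp upstream, in AP2A2. The promoter H3K27ac peak chr11:4114865-4117545 was 2681 bp wide with a fold enrichment of 13, and its summit was 273 bp downstream of the TSS at 4116029. A peak of 7.19 in intron 1 and a peak of 6.58 in intron 18, near the start of RRM1-AS1, made up the rest.

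RRM2 encodes the small subunit of the same enzyme, and its annotation spans chr2:10260825-10351851 on the plus strand, with the canonical TSS at 10262866. No MYC peak was called, and the nearest MYC summit was 317931 bp downstream, in ODC1. The promoter H3K27ac peak chr2:10261740-10263780 had a fold enrichment of 21.2 and a summit 272 bp upstream of the TSS. The strongest H3K27ac peak at any of the 9 genes, 37.5, was the neighbouring peak chr2:10259812-10261310, with its summit 2090 bp upstream, and 0.598% of all H3K27ac peaks were higher. This peak holds another annotated TSS of RRM2, 2005 bp upstream of the canonical one, and the E-box printed above, which is 173 bp from that TSS. The promoter of RRM2 contained CCAAT 3 times, starting 123 bp, 93 bp and 66 bp before the TSS, and 13 bases from the start of each match were identical. The windows chr2:10262735-10262759, chr2:10262765-10262789 and chr2:10262792-10262816 of the plus strand show this repeat with CCAAT in capitals.

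RRM2 first match: aggcgcagCCAATgggaagggtcgg
RRM2 second match: tggcacagCCAATgggaagggccgg
RRM2 last match: caccaaagCCAATgggaagggccgg

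The same motif, counted on either strand from 250 bp before to 50 bp after the TSS, was present in 6 of 9 promoters (CAD, DHODH, DTYMK, RRM1, RRM2 and TK1), compared to 35.9% of all promoters. At least 2 matches were found in 3 of 9 (DTYMK, RRM2 and TK1), compared to 12.3%, and at least 3 in 1 of 9 (RRM2), compared to 3.83%. In TK1 the matches read ATTGG on the strand of the gene and start 77 bp and 46 bp before the TSS, in the windows chr17:76183194-76183218 and chr17:76183163-76183187 of the minus strand.

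TK1 first match: gggcgctgATTGGccccatggcggc
TK1 second match: ggctcgtgATTGGccagcacgccgt

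TATAAA was found in 0 of 9 promoters and in 9.78% of all. Sequences that differ from it by a base were not searched, so the promoters cannot be said to lack a TATA element. The ratio of observed to expected CpG within 500 bp of the TSS was above the median of all protein-coding genes, 0.72, in 8 of 9 genes. It was highest at DTYMK with 1.02 and lowest at TK1 with 0.58.

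**Figure D2:**
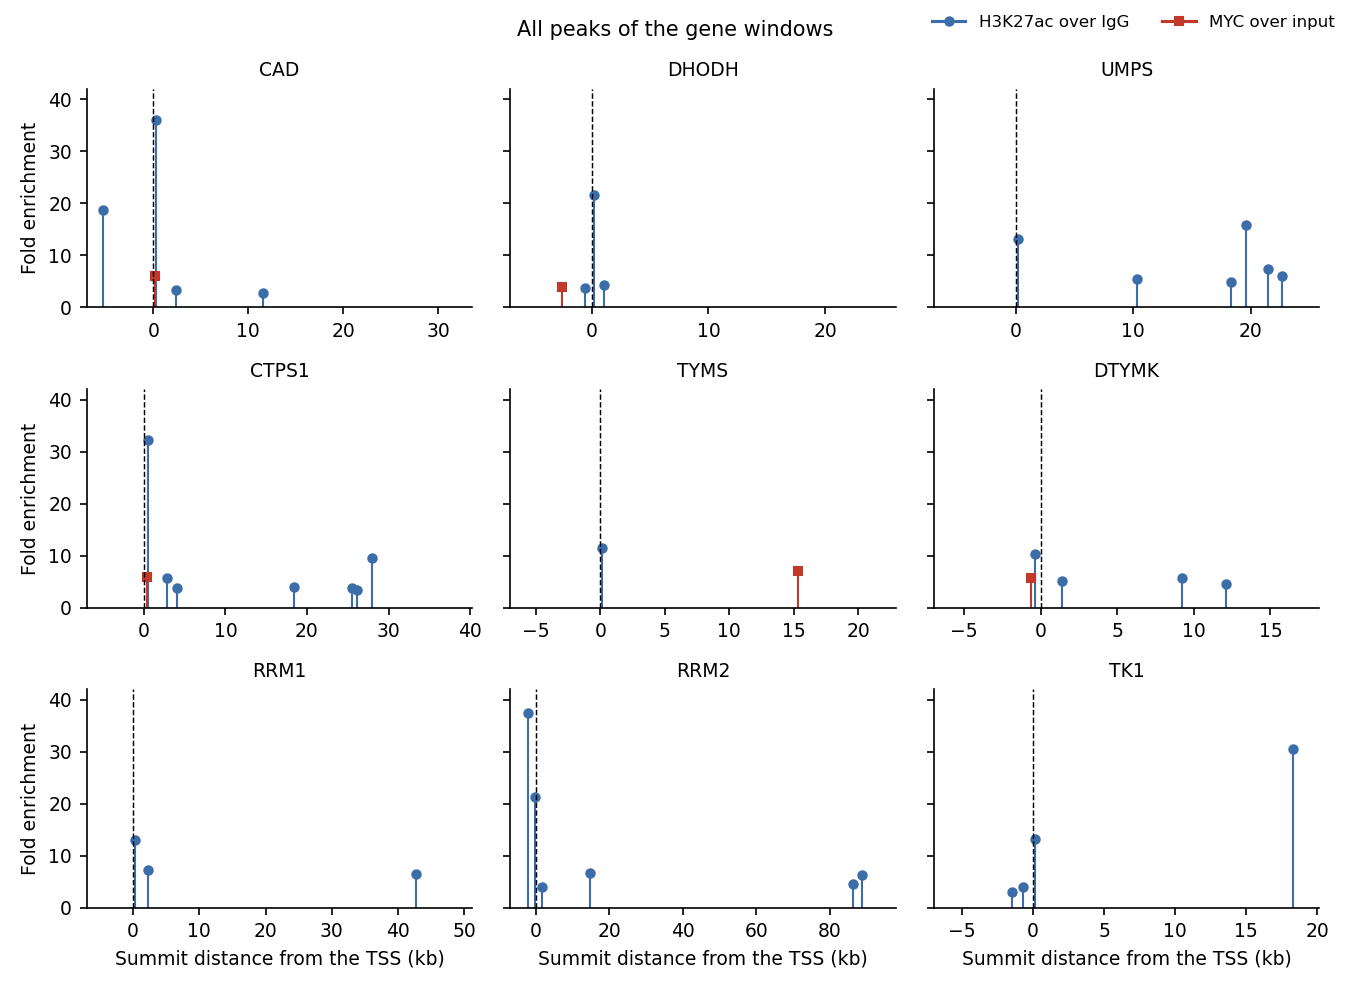
Fold enrichment of every H3K27ac peak (blue circles, over IgG) and MYC peak (red squares, over input) assigned to the 9 genes, by distance in kb of the summit from the canonical TSS (dashed line) on the strand of the gene. The MYC peak of TYMS stands alone 15331 bp downstream, and the strong peak in the TK1 window lies at the start of SYNGR2.

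The plot of all peaks in the windows shows how the H3K27ac peaks were distributed. Of the 38 peaks, 12 lay within 1 kb of a canonical TSS, with fold enrichments from 3.72 to 36.1 and a median of 13.1. Another 4 lay near a different annotated TSS of the same gene and 3 near the TSS of another gene. The remaining 19 had no annotated TSS within 1 kb and were weaker and narrower, with a median fold enrichment of 4.85, a highest value of 15.8 at UMPS and a median width of 297 bp. The median fold enrichment over all 38 peaks was 6.12, and that over all 87087 H3K27ac peaks, promoter peaks included, was 5.30. The number of peaks per gene ranged from 1 at TYMS to 7 at CTPS1 with a median of 4, where the median of all protein-coding genes was 3.

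**Figure D3:**
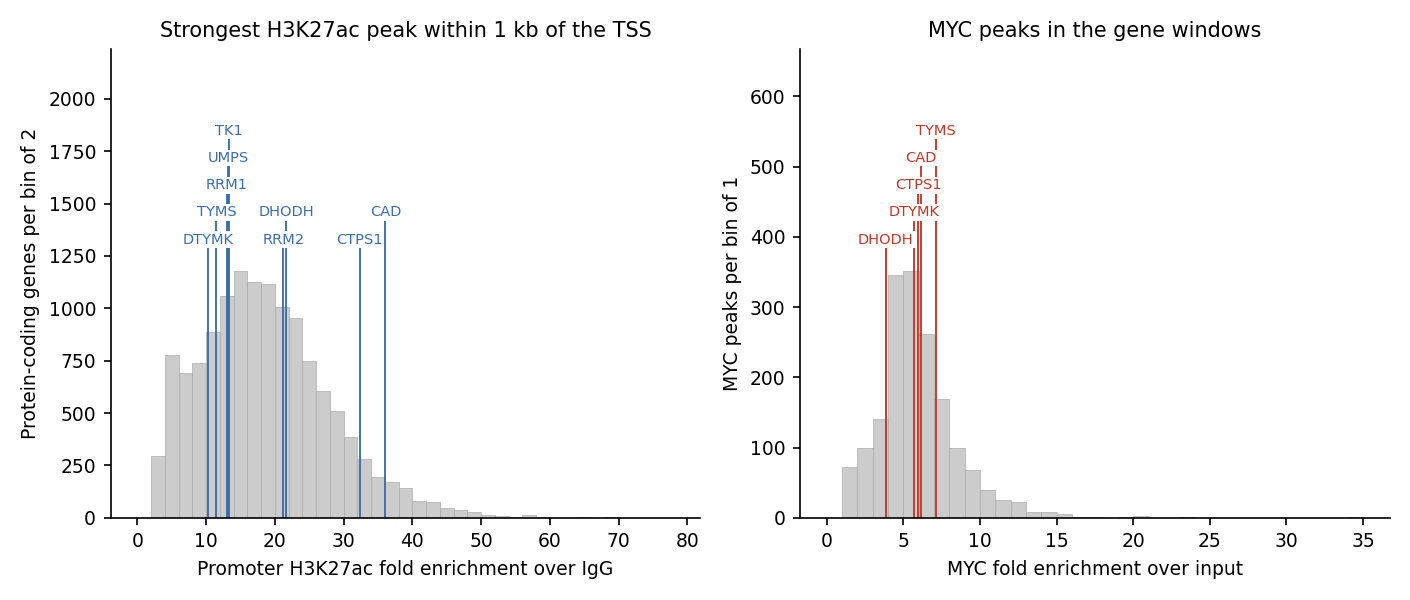
Left, fold enrichment over IgG of the strongest H3K27ac peak within 1 kb of the TSS in all 13185 protein-coding genes that have one (grey, genes per bin), with the 9 genes marked. Right, fold enrichment over input of all 1723 MYC peaks (grey, peaks per bin), with the 5 peaks assigned to the genes marked by gene. CAD and CTPS1 lie in the upper tail of the H3K27ac values, and the 5 MYC peaks spread from 3.83 to 7.12, on either side of the MYC median of 5.57.

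The promoter H3K27ac level differed among the genes. The median fold enrichment of the strongest peak within 1 kb of the TSS was 13.3 over the 9 genes and 17.7 over all 13185 protein-coding genes with such a peak. By the −log10 q of the same peaks the order was the opposite, with medians of 143 and 110. By fold enrichment CAD, CTPS1, DHODH and RRM2 were above that median of all genes, and the other 5 genes, UMPS, TYMS, DTYMK, RRM1 and TK1, were below it at 10.3 to 13.3. The summit of this peak was downstream of the TSS in 7 of 9 genes, all but DTYMK and RRM2, and in 76% of all genes with the mark.

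**Figure D4:**
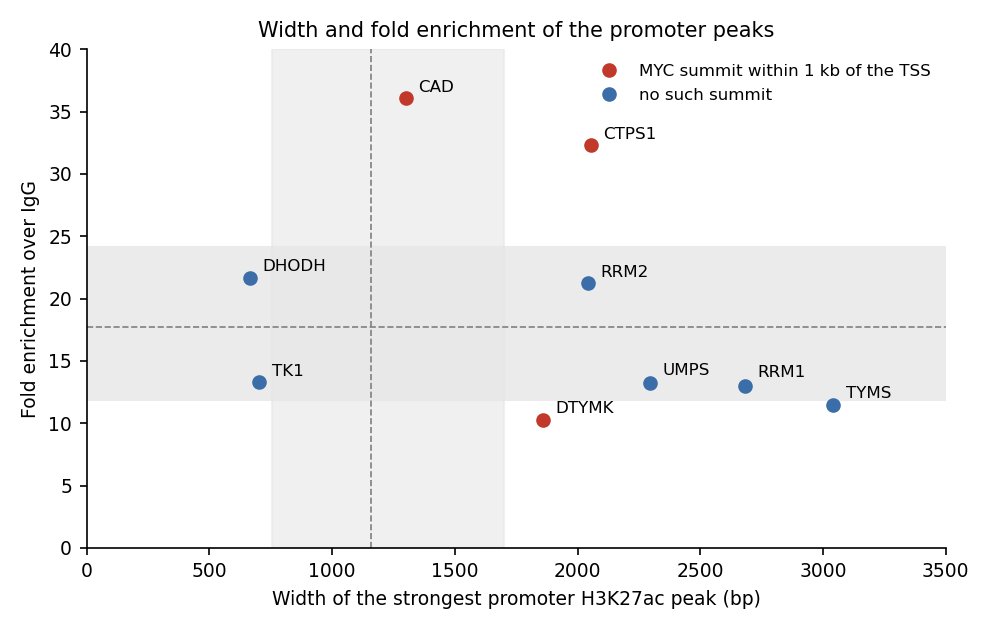
Width in bp against fold enrichment over IgG for the strongest promoter H3K27ac peak of each gene, in red where a MYC summit lay within 1 kb of the TSS. Dashed lines mark the medians (1159 bp and 17.7) and grey bands the quartile ranges of all protein-coding genes with such a peak, and UMPS, RRM1, TYMS and DTYMK lie at large width and low fold enrichment.

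The widths of the promoter peaks gave another order, as the plot of width against fold enrichment shows. The median width was 2041 bp for the 9 genes and 1159 bp for all genes with the mark. UMPS, CTPS1, TYMS, DTYMK, RRM1 and RRM2, 6 of 9, were wider than the upper quartile of 1702 bp, which 25% of all genes exceed by definition. Peaks that were wider than this and at the same time below the median fold enrichment occurred at 4 of 9 genes (UMPS, TYMS, DTYMK and RRM1) and at 7.46% of all genes with the mark, a combination chosen after the values were seen. DHODH and TK1 had the narrowest promoter peaks, 665 bp and 704 bp.

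The 5 MYC peaks had fold enrichments from 3.83 to 7.12 with a median of 5.97, close to the median of 5.57 over all MYC peaks. DHODH was below the lower quartile of all MYC peaks, 4.39, and TYMS just above the upper quartile of 7.12, and the highest value of the list was 34.2. An E-box within 50 bp of the summit was found in 2 of 5 (CAD and DTYMK), against 12.3% of all MYC peaks. An H3K27ac peak was overlapped by 3 of 5 (CAD, CTPS1 and DTYMK), against 45.5% of all, and a near-identical copy elsewhere in the genome was found for 1 of 5 (DHODH), against 42.5% of the 1696 peaks whose summit window could be placed. The peaks therefore fell into 2 with H3K27ac and an E-box, 1 with H3K27ac and no E-box, CTPS1, and 2 with neither, TYMS and DHODH.

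Among genes with H3K27ac at the TSS, the share with a MYC summit within 1 kb was 3 of 9 in the list and 5.42% over all protein-coding genes. When the promoters were divided by the E-box within 500 bp of the TSS, MYC was called at 1 of 3 genes with it (CAD, but not DHODH or UMPS), where the share over all such genes was 13.3%. Of the 6 genes without it, MYC was called at 2 (CTPS1 and DTYMK), and the share over all such genes was 3.34%. The E-box of DTYMK lies just outside this limit, 614 to 619 bp before the TSS, and with a limit of 1 kb 4 of 9 genes had an E-box, against 29.2% of all protein-coding genes. MYC was then called at 2 of these 4, CAD and DTYMK, where the share over all such genes with H3K27ac was 11.1%. Most genes with H3K27ac at the TSS thus had no MYC summit called there, whether or not an E-box was near the TSS. The share with a summit was nevertheless higher among genes with an E-box within 500 bp, 13.3% against 3.34%. DHODH and UMPS are genes with such an E-box and no MYC call, which does not show that MYC was absent.

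**Figure D5:**
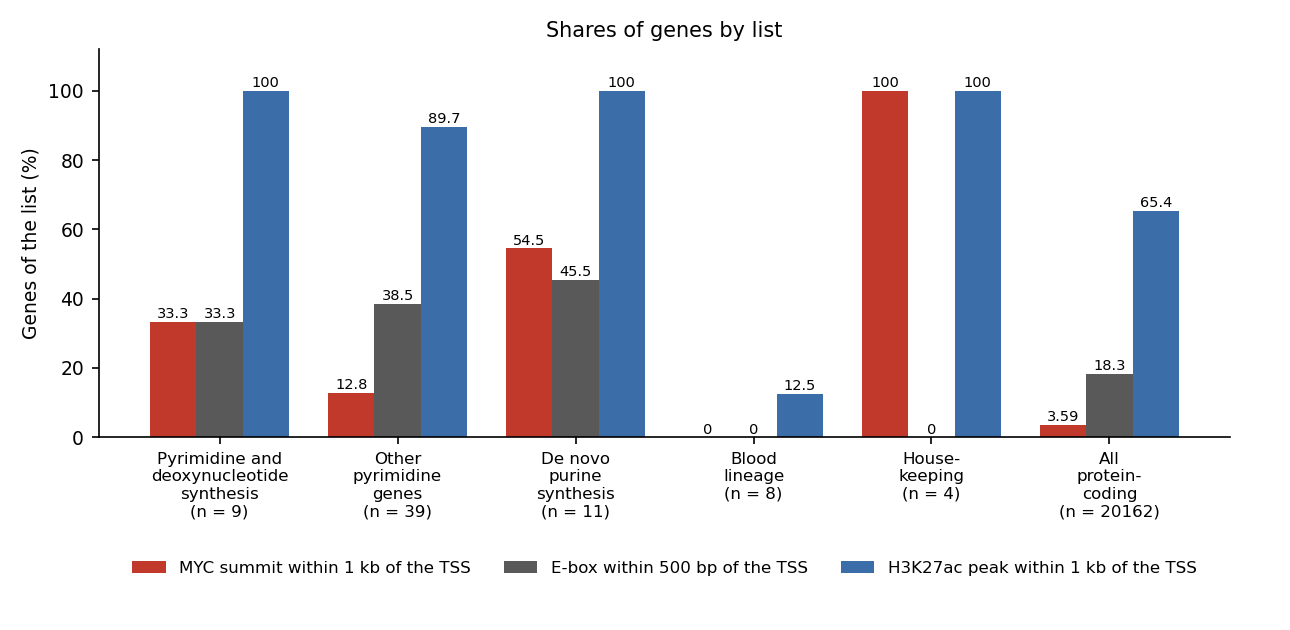
Percent of the genes of each list with a MYC summit within 1 kb of the TSS (red), an E-box within 500 bp of the TSS (grey) and an H3K27ac peak within 1 kb of the TSS (blue), with the number of genes in parentheses. The pyrimidine and deoxynucleotide synthesis genes stand at 33.3%, 33.3% and 100%.

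The comparison by list sets the 9 genes beside the rest of their pathway, de novo purine synthesis and the housekeeping genes. Of 39 further genes of pyrimidine and deoxynucleotide metabolism (kinases, salvage and breakdown enzymes, transporters and reductants), 5 had a MYC summit within 1 kb of the TSS (12.8%). These were the nucleoside diphosphate kinases NME2 (fold enrichment 14.3) and NME1 (11.6), the nucleoside transporter SLC29A1 (8.02), the uridine-cytidine kinase UCK2 (5.27) and the deoxycytidylate deaminase DCTD (3.54). NME1 and NME2 also had an E-box within 50 bp of the strongest of these summits, as CAD and DTYMK had. An H3K27ac peak was present at the TSS of 35 of these 39 genes, and the 4 without it were UPP2, NT5E, DPYD and DPYS. Of 11 genes of de novo purine synthesis, 6 (PPAT, GART, PFAS, PAICS, ADSL and ATIC) had a MYC summit within 1 kb of the TSS, PPAT and PAICS through shared peaks, and 11 had H3K27ac there. An E-box within 500 bp of the TSS occurred in 5 of the 11 purine genes (45.5%) and 15 of the 39 further pyrimidine genes (38.5%). The share was 33.3% of the 9 genes and 18.3% of all protein-coding genes. None of the 6 purine genes with a MYC summit had an E-box within 50 bp of the strongest summit. The housekeeping genes had a MYC summit within 1 kb of the TSS in 4 of 4 (100%), likewise with no E-box within 50 bp of the strongest summit, so the share of the 9 genes was above that of the further pyrimidine genes and below those of the purine and housekeeping genes. The median promoter H3K27ac fold enrichment was 18.4 for the further pyrimidine genes and 19.3 for the purine genes, against 13.3 for the 9 genes. The −log10 q and the width of these peaks, which gave the 9 genes another place among all genes, were not compared by list. The lists differ in size, and these shares describe the libraries at hand.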

How the data were processed

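Peak lists of wild-type HAP1 ChIP-seq (4 libraries) were used. Reads had been mapped by the authors to hg19 using Bowtie2 (2.2.4), and narrow peaks called with MACS2 (2.1.1) at default settings. The deposited fold enrichment is a ratio over the control at the summit, given with the −log10 p and −log10 q by the authors' peak calling. The deposited score is a rescaled −log10 q and was not used. Genes came from GENCODE release 44 lifted to GRCh37, with the canonical transcript as TSS, and sequences from GRCh37. Near-identical copies were other places matching 100 bp on either side of a summit (BLAST 2.17.0, minimum identity 90%, minimum coverage 80%). Python (3.11.15) was used with numpy (2.4.6), pandas (2.3.3) and pysam (0.24.0), samtools (1.23.1) and matplotlib (3.10.9). The overlap and motif counts were tested on simulated data. Named were all 9 genes with every MYC peak and the promoter H3K27ac peaks, further pathway genes with a MYC summit within 1 kb of the TSS (at most 8) or without H3K27ac there (at most 6), purine and marker genes, and genes that start near a MYC summit. Other H3K27ac peaks were singled out after their values were seen. The genes and lists were chosen with earlier results of these data known. Alternatives were stricter peaks and other windows, distances, overlaps, TSS sets and motifs. Library depth was not analysed here. By default MACS2 keeps a single read per position and strand. Whether duplicates had been removed before peak calling is not given in the sources used here. The paper's reporting summary lists total and unique mapped reads of each library, without stating which of them entered peak calling. In that list the MYC library has the fewest unique mapped reads of the 4 libraries. The part of duplicates in the MYC fold enrichments was not tested.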

Additional observations from a re-analysis of the deposited data

How the results depend on the processing

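Of 34 alternative settings, 4 of which were chosen after seeing the data, 25 left a count within 1.5 times its value or a median at its value. When peaks below a −log10 q of 10 were left out, the genes with a MYC peak went from 5 to 1, those with a MYC summit within 1 kb of the TSS from 3 to 1, the MYC peaks with an E-box near the summit from 2 to 1, and the H3K27ac peaks from 38 to 21. Of all peaks, 34.1% of MYC and 43.6% of H3K27ac passed this limit, and the shares of all protein-coding genes went from 7.61% to 2.57% with a MYC peak and from 3.59% to 1.24% with a MYC summit within 1 kb of the TSS. An E-box near the summit was found in 13.1% of all MYC peaks that passed, instead of 12.3%. The genes with a MYC peak numbered 3 within the gene body alone (5.4% of all protein-coding genes), and also 3 when only MYC peaks that overlap an H3K27ac peak were counted (5.16%), a choice made after seeing the data. The median fold enrichment of the MYC peaks was 6.12 within the gene body and 6.04 with 1 kb on either side, instead of 5.97. With any annotated TSS, 6 genes instead of 3 had an E-box within 500 bp, while the share of all protein-coding genes went from 18.3% to 38.1%. The H3K27ac count of 9 genes at the TSS and the median of 13.3 stayed the same under each alternative run for them. The other choices made after seeing the data gave 4 genes with a MYC peak without a near-identical copy, 2 genes with a MYC summit no closer to another protein-coding gene, and 35 H3K27ac peaks with RRM2 limited to its canonical transcript.

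A peak list holds no signal below the caller's threshold, so a gene without a MYC peak cannot be called unbound. With 1 library per antibody, the error of a fold enrichment or a summit position is unknown, and the gain from deeper sequencing could not be estimated. The windows of longer genes take in more peaks and peaks of neighbouring genes.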

Other observations

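Pseudogenes named after the genes were also inspected. Of 5 such loci (RRM2P2, RRM2P3, RRM2P4, TYMSP1 and TYMSP2), 1 carried a MYC peak, RRM2P3 on the X chromosome, and 0 carried an H3K27ac peak. The share over all pseudogenes was not determined, so these counts do not show whether a peak at such a locus is unusual. The MYC peak of RRM2P3, chrX:44168718-44168991, had a fold enrichment of 6.05 and a −log10 q of 4.70, above the −log10 q of the DHODH peak. No E-box lay within 50 bp of its summit. No near-identical copy of its summit window was found at RRM2 under the identity limit used.

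The E-boxes counted with any annotated TSS include sites far from the canonical start. At UMPS 1 lies 183 bp from a TSS 7679 bp downstream, at TYMS 448 bp from a TSS 10068 bp downstream, and at RRM2 249 bp from a TSS 19586 bp downstream. None of these 3 lay in a MYC or an H3K27ac peak.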
